A study of Mus musculus with 3 samples.

Results

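Purinergic genes of brain macrophages were described here in fetal mouse brain: the nucleotide receptors P2ry12, P2ry13, P2ry6, P2rx4 and P2rx7, the adenosine receptor Adora3, the ectonucleotidase Entpd1, and Gpr34, a lipid receptor that lies in the same receptor family as P2ry12. These 8 genes were chosen by symbol, as 8 of the 27998 genes in the count tables, and their levels were taken in microglia, border macrophages and monocytes set apart by marker genes that include none of the 8. All cells came from fetal brain at E18.5, shortly before birth, and were enriched with magnetic beads for CD11b, an integrin chain of myeloid cells, then read at the 3′ end in droplets. There were 3 libraries, 1 a group. The first carried Ncr1-cre and was given saline, the second carried Ncr1-cre and was given poly(I:C), a synthetic double-stranded RNA that mimics viral infection, and the third, Gzmb-cko, had the genotype Ncr1-cre;gzmbf/f and was given poly(I:C). Ncr1-cre, present in all 3 groups, acts in natural killer and related innate lymphoid cells, so the deletion of Gzmb, the gene of the protease granzyme B, is not directed at microglia. The labels name pregnant mice as the groups. No source used here gives the dose, the day of injection, how many fetuses went into a library, or if dam or fetus carried the genotype.

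Microglia are the resident macrophages of the brain tissue, and their processes move towards ATP and ADP that leak from damaged or active cells. P2ry12 and P2ry13 sense ADP through inhibitory G proteins, P2ry6 senses UDP and promotes uptake of particles, P2rx4 and P2rx7 are ion channels opened by ATP, and Adora3 senses adenosine. Entpd1, also called CD39, degrades ATP and ADP outside the cell, and Gpr34 responds to lysophosphatidylserine, a lipid released from membranes.

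P2ry12 and P2ry13 lie next to each other on the minus strand of chromosome 3 (GRCm38, chr3:59216272-59262871 and chr3:59207892-59210882), 5389 bases apart and both inside the span of Med12l on the opposite strand. P2rx7 and P2rx4 are neighbours on the plus strand of chromosome 5 (chr5:122643911-122691432 and chr5:122707544-122729738), 16111 bases apart. P2ry6 is at chr7:100937630-100974649, Gpr34 at chrX:13632089-13640858 within the span of Cask on the opposite strand, Adora3 at chr3:105870858-105908926 and Entpd1 at chr19:40612366-40741602. RefSeq promoter windows of 300 bases, from 250 before to 50 after a start site, were at hand for 6 of the 8 genes (build GRCm38.p6), and 4 are shown: those of the 3 genes that, among these 6, stood furthest below microglia in border macrophages, and that of P2rx4, which was higher in border macrophages. Capitals mark AGGAAGT or GAGGAAG, purine-rich words of the kind bound by ETS factors such as PU.1, on either strand; the words overlap each other.
P2ry12, chr3:59262936-59263235, minus strand: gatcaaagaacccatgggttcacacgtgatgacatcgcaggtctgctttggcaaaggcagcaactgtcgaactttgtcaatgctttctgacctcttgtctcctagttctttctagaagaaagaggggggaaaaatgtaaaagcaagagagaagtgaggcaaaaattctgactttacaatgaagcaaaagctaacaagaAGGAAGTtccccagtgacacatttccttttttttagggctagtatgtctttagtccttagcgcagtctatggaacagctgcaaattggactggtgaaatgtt
P2ry13, chr3:59210833-59211132, minus strand: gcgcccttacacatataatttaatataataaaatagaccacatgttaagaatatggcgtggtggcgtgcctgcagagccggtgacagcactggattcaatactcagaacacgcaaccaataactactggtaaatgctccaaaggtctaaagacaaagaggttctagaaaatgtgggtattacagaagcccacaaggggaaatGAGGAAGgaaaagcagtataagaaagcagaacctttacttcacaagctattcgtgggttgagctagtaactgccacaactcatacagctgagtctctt
Adora3, chr3:105904171-105904470, plus strand: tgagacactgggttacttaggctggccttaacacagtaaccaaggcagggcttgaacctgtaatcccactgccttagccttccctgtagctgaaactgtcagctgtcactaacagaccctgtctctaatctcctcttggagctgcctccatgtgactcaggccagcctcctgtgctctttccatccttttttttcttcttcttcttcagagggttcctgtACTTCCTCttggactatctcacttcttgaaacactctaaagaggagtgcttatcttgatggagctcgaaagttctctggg
P2rx4, chr5:122707294-122707593, plus strand: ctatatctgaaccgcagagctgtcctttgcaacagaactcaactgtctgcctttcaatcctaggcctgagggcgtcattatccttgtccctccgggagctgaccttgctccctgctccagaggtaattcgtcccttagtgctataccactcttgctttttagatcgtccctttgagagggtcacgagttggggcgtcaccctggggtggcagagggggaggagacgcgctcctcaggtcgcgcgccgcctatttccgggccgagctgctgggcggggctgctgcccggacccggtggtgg
The word began 52 bases before the start site in P2ry12 and 48 bases before it in P2ry13, and stood on the reverse strand 30 bases before it in Adora3. It was not found in the window of P2rx4, whose GC content was 60.3% against 42.3% in P2ry12 and in P2ry13. It was not confined to genes lower in border macrophages: P2rx7, the other gene higher in border macrophages, held both forms on the reverse strand 3 and 4 bases after its second listed start (chr5:122650133-122650432), and Entpd1 held GAGGAAG 227 bases before its second listed start (chr19:40659520-40659819). AGGAAGT on either strand was present in 9.35% of 32851 promoter windows and GAGGAAG in 13.6%, so each is common and the matches are given as a description only.

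The files held 13820 barcodes and 89295907 UMIs (unique molecular identifiers, 1 per captured transcript) in the saline library, 14887 and 85442198 in the Ncr1-cre library given poly(I:C), and 15306 and 105574073 in the Gzmb-cko library. A filter of at least 500 genes and at most 10% of UMIs from mitochondrial genes left 10759 to 13447 cells a library, and the libraries shared 63 to 71 barcodes in pairs. Barcodes reached down to 3133 UMIs with saline and 500 in both poly(I:C) libraries. Gzmb, the targeted gene, gave 61 UMIs in 4 kept cells with saline, 127 in 6 cells with poly(I:C) and 2 in 1 cell of the Gzmb-cko library. Microglia were cells with a UMI of at least 2 of Tmem119, Sall1, Siglech and Slc2a5 and none of Mrc1; there were 4399, 3493 and 4498 in the saline, Ncr1-cre poly(I:C) and Gzmb-cko libraries, the order kept below. Border macrophages, the macrophages of meninges and vessels, had Mrc1 and Pf4 (1093, 681 and 1873 cells), and monocytes had Ccr2 and Ly6c2 (586, 473 and 405 cells). Markers not used in gating were checked. All 6 border macrophage markers, led by Lyve1 and Cd163, were higher in border macrophages than in microglia, and all 6 monocyte markers, such as Plac8 and Chil3, were higher in monocytes. The 6 microglia markers outside the gate set border macrophages apart less well. Of these, 3 were lower in border macrophages than in microglia and 3 did not pass the test used below, while all 6 were lower in monocytes. The border gate was not pure by this measure, since 51.9% to 56.4% of its cells also carried at least 2 of the 4 microglia gate genes. Border results are therefore given a second time for the 474, 327 and 830 cells with at most 1 of these genes. Because these cells were chosen for few microglia gate genes, genes that vary with the gate genes can be lower in them by the choice alone. Microglia in turn were chosen for at least 2 of these genes, and border macrophages and monocytes were not. Genes that vary with the gate genes can thus be higher in microglia by that choice, and its part was not tested.

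In microglia, P2ry12 and Gpr34 gave the most UMIs of the 8, on a scale that counts 3′ ends and is not divided by length. P2ry12 stood at 868, 1405 and 1130 CPM (a gene's UMIs scaled to a class total of 1000000), with exact 95% Poisson intervals of 857 to 879.9, 1389 to 1421 and 1118 to 1142. The saline library was lowest and the Ncr1-cre poly(I:C) library highest, with no overlap of the intervals. A median microglia held 4, 8 and 7 UMIs of P2ry12, and 94.5%, 96.9% and 96.6% of microglia had at least 1. Gpr34 stood at 558, 769 and 750.3 CPM, also lowest with saline. P2ry6 gave 259, 308 and 294 CPM, P2ry13 149.7, 219 and 192, and Entpd1 139, 209 and 157. For each of these 3 genes the Ncr1-cre poly(I:C) library was again the highest. The channels and Adora3 were sparse: P2rx4 was at 60.6, 87.9 and 83.9 CPM, P2rx7 at 47.7, 58.7 and 54.7, and Adora3 at 47.6, 64.2 and 62.5, with a median of 0 UMIs per microglia for all 3. All intervals cover counting error only.

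**Figure D1:**
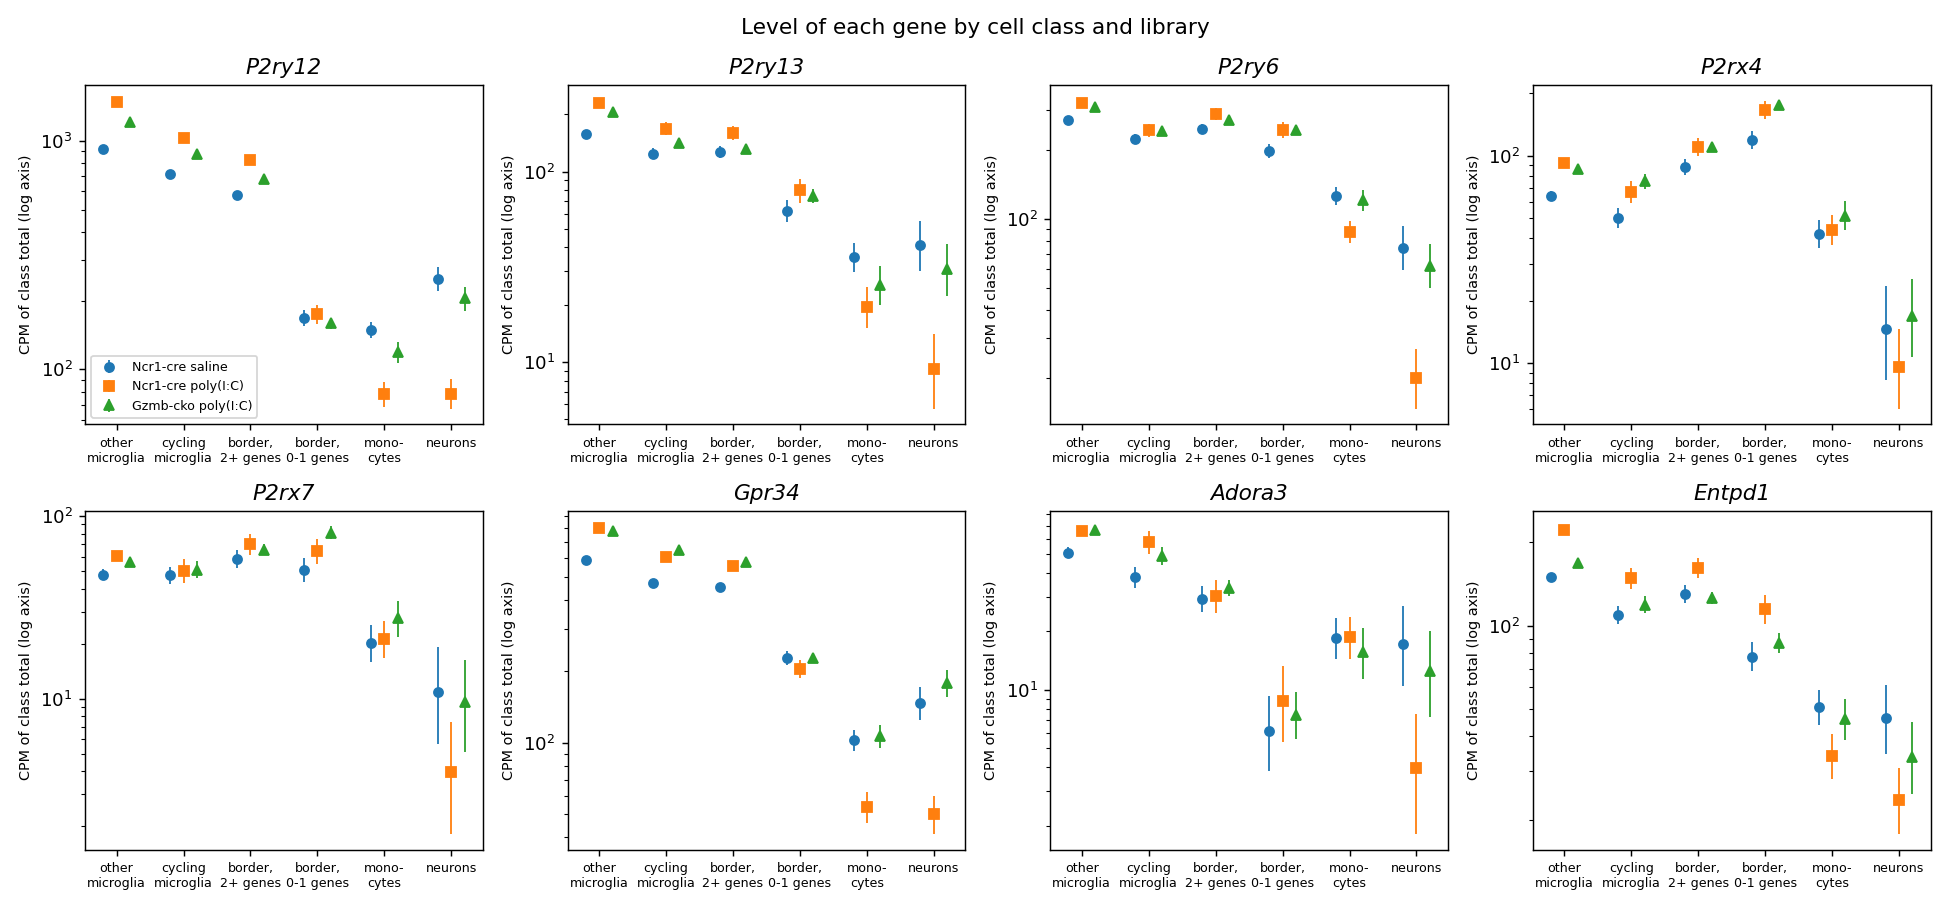
CPM (UMIs scaled to the class total, log axis) of each gene by cell class, one symbol per library, with exact 95% Poisson intervals as bars; the border classes are split by the number of microglia gate genes detected. P2ry12 lay at 576 to 827 CPM in border cells with 2 or more microglia gate genes and at 159 to 174 CPM in those with at most 1, and P2rx4 lay at 88.8 to 111 and 119 to 175 CPM.

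Border macrophages differed from microglia in opposite directions for different receptors. The ADP receptors P2ry12 and P2ry13, Gpr34, Adora3 and Entpd1 were lower in border macrophages, and the ATP channels P2rx4 and P2rx7 were higher. These differences were tested on UMIs summed per class and library with edgeR's quasi-likelihood test, library as a block, with Benjamini-Hochberg adjustment over 12302 genes and an adjusted p under 0.05 as the threshold. The 3 libraries served as replicates of the class difference although they are 3 different groups. Microglia, border macrophages and monocytes stood in 1 fit. A gene's SE and p-value therefore also carry how its monocyte levels varied between libraries, and the spread is estimated partly from other genes. The p-values thus do not measure only how alike the border difference was in the 3 libraries. Of the 8 genes 2 were called higher, where 11.2% of all genes tested were called higher, and 5 were called lower, where 10.1% of all genes were called lower. The median log2 difference of the 8 was −0.63, against −0.01 over all genes tested. Platelet genes other than the gate gene Pf4 moved with this contrast (4 of 5 higher, median 2.07), as did erythroid genes (4 of 6 lower, median −0.71), and their part in it was not tested.

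P2ry12 was at 414, 559 and 492 CPM in border macrophages, below microglia of the same library by 2.10-, 2.52- and 2.30-fold. The fitted log2 difference was −1.24 (SE 0.23, adjusted p = 0.0041, edgeR). In border macrophages with at most 1 microglia gate gene it was at 167, 174 and 159 CPM, and the difference was −2.70 (SE 0.24, adjusted p = 2.6e-05, edgeR). The choice of cells can itself widen the difference, so the larger value is not a separate result, and the part of the choice was not tested. P2ry12 levels in these cells lay close to one another and, in the saline and Gzmb-cko libraries, below those in neurons (248, 78.4 and 204 CPM), a class that should lack it. Adora3 behaved alike: 20.2, 21.5 and 24.1 CPM in all border macrophages, 6.11, 8.71 and 7.44 in those with at most 1 microglia gate gene, and log2 differences of −1.41 (SE 0.10) and −2.91 (SE 0.14). In neurons Adora3 was at 17.3, 3.94 and 12.5 CPM, so the stricter border cells were again below neurons in the saline and Gzmb-cko libraries. Ttr, a choroid plexus gene, was at 20090, 13170 and 2169 CPM in the stricter cells and 3486, 4173 and 1721 CPM in the other border cells, and its part in these differences was not tested. Adora3 shares exons on the same strand with Tmigd3, which stood at 0.549 to 0.712 CPM in microglia, and how reads of the shared exons were counted was not tested, so its level is uncertain.

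Gpr34 was at 364, 412 and 451 CPM in border macrophages, a log2 difference of −0.79 (SE 0.19, adjusted p = 0.017, edgeR) that became −1.60 in the stricter cells. P2ry13, at 101, 126 and 112 CPM, gave −0.75 (SE 0.16, adjusted p = 0.0097, edgeR) and −1.30. Entpd1, at 109, 142 and 112 CPM, gave −0.50 (SE 0.15, adjusted p = 0.040, edgeR) and −0.80. All 3 were thus below microglia in every library, by less than P2ry12 and Adora3. P2ry6, the UDP receptor, was at 228, 269 and 262 CPM, and its difference of −0.21 (SE 0.13, adjusted p = 0.28, edgeR) did not pass. In the stricter cells it was −0.26 (adjusted p = 0.16, edgeR).

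P2rx4 was the clearest exception. It was at 101, 133 and 134 CPM in border macrophages, 1.66-, 1.52- and 1.60-fold above microglia of the same library. The log2 difference was 0.64 (SE 0.08, adjusted p = 0.00036, edgeR), and 1.06 (SE 0.09, adjusted p = 2.0e-05, edgeR) in the stricter cells at 119, 167 and 175 CPM. P2rx7 was at 55.4, 67.7 and 71.1 CPM, with a smaller difference of 0.24 (SE 0.07, adjusted p = 0.031, edgeR) and 0.35 in the stricter cells. The 2 neighbouring channel genes therefore both leaned to border macrophages, and the 2 neighbouring ADP receptor genes both leaned to microglia.

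Without the Gzmb-cko library, which had the most border cells, only P2rx4 (higher) and Adora3 (lower) passed. The log2 difference of P2ry12 was then −1.25, against −1.24 with all libraries, and its adjusted p was 0.095 (edgeR). Why calls were lost without this library was not tested. The calls of P2rx7 and Entpd1 were also lost in other settings, DESeq2 among them, and that of Gpr34 when doublets called by Scrublet were left out (adjusted p = 0.052, edgeR).

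**Figure D2:**
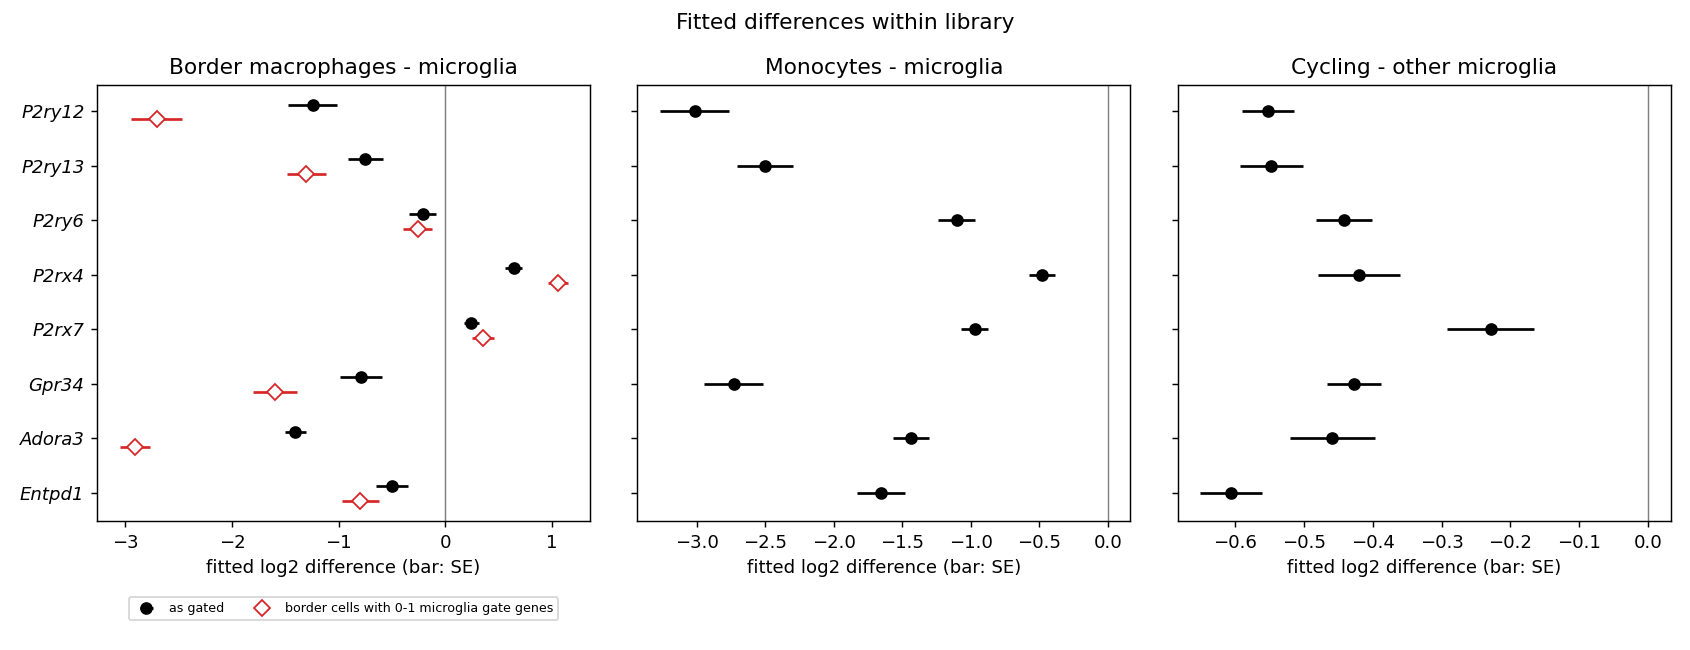
Fitted log2 differences of the 8 genes (x axis; edgeR, bars are SE) between border macrophages and microglia, monocytes and microglia, and cycling and other microglia. Diamonds give the border difference for border cells with at most 1 microglia gate gene: P2ry12 moved from −1.24 to −2.70 and P2rx4 from 0.64 to 1.06.

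Monocytes had less of all 8 transcripts than microglia. All 8 genes were called lower, where 30.4% of the 12302 genes tested were called lower, 29.5% higher and 59.9% either way (edgeR, adjusted p under 0.05), and their median log2 difference was −1.55 against −0.06 over all genes. The split over all genes was 3630 higher and 3743 lower, and 2575 and 5496 without TMM, with all 8 lower in both. P2ry12 was at 149, 77.8 and 119 CPM in monocytes, 5.84-, 18.0- and 9.49-fold below microglia, and its log2 difference was −3.02 (SE 0.25, adjusted p = 4.7e-06, edgeR). Gpr34 followed with 103, 53.6 and 107 CPM and −2.73 (SE 0.22), then P2ry13 with 35.6, 19.5 and 25.4 CPM and −2.50 (SE 0.20). For these 3 genes the Ncr1-cre library given poly(I:C) had the widest gap. Entpd1 gave −1.66 (SE 0.18), Adora3 −1.43 (SE 0.13), P2ry6 −1.10 (SE 0.13) and P2rx7 −0.97 (SE 0.10). P2rx4 differed least, at 42.1, 44.0 and 51.6 CPM and −0.48 (SE 0.09, adjusted p = 0.0014, edgeR).

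Against border macrophages, monocytes were lower in 7 of the 8, where 27.6% of genes were called lower, 28.1% higher and 55.7% either way, by log2 differences from −0.89 for P2ry6 to −1.94 for Gpr34. Over all genes 3457 were higher and 3396 lower, against 2245 and 5554 without TMM. The exception was Adora3, with 18.6, 18.7 and 15.6 CPM in monocytes and a difference of −0.03 (SE 0.15, adjusted p = 0.89, edgeR). With border macrophages of at most 1 microglia gate gene, Adora3 was higher in monocytes by 1.5 (SE 0.18, adjusted p = 9.9e-05, edgeR), and P2ry12 no longer differed past the threshold, at −0.32 (SE 0.24, adjusted p = 0.29, edgeR). Adora3 was at 6.11 to 8.71 CPM in these border cells and at 3.94 to 17.3 in neurons, which should lack it, so these levels are near background. The choice of border cells can itself lower Adora3 in them, and its part was not tested. The order of the classes was thus microglia, border macrophages, monocytes for P2ry12, P2ry13, Gpr34 and Entpd1, with the lower neighbours of P2ry12 not set apart in the stricter cells. For P2rx4 and P2rx7 it was border macrophages, microglia, monocytes, and for P2ry6 the upper pair did not differ past the threshold.

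What monocytes held of P2ry12, Gpr34 and P2ry13 was near the level in neurons. It was not spread evenly over monocytes. The 1% of monocytes with the most P2ry12 held 16.7%, 37.8% and 26.8% of its UMIs, against 4.08%, 3.78% and 3.90% in microglia. For Gpr34 in monocytes these shares were 16.8%, 29.3% and 27.6%. Such a share is larger at a low mean by counting alone, and P2ry12 means were 0.971, 0.564 and 0.867 UMIs per monocyte against 5.08, 8.80 and 7.77 per microglia. In microglia P2rx7, with means of 0.279, 0.368 and 0.376 UMIs, gave shares of 9.36%, 9.18% and 8.57%. Neurons, cells with at least 3 of 6 neuronal genes and in no myeloid gate (180, 395 and 217 cells), should lack these receptors. To compare shares at 1 depth, each cell was thinned to 2000 UMIs, which left out at most 116 microglia, 13 border macrophages, 2 monocytes and 22 neurons of a library. P2ry12 was then found in 77.2%, 86.8% and 82.1% of microglia, 48.1%, 53.7% and 51.6% of border macrophages, 17.2%, 9.34% and 10.4% of monocytes, and 23.3%, 6.97% and 17.8% of neurons. Unthinned, the share was 32.8%, 20.1% and 26.2% in monocytes and 39.4%, 14.9% and 29.0% in neurons, at median depths of 4732.5, 6406 and 6389 UMIs against 4951, 4750 and 4886. Neurons also held the microglia gate genes Siglech (149, 31.1 and 112 CPM) and Tmem119 (56.5, 15.8 and 59.5 CPM). The monocyte share of P2ry12 was below the neuron share in the saline and Gzmb-cko libraries. It was above the neuron share in the Ncr1-cre library given poly(I:C). The intervals of the 2 classes overlapped in each library, so neither direction is firm, and the source of the monocyte UMIs was not tested. Gpr34 behaved alike after thinning, at 9.22%, 6.37% and 9.68% of monocytes against 15%, 5.63% and 15.7% of neurons. P2ry13 was in 4.44%, 2.76% and 2.98% of monocytes against 5.56%, 0.804% and 3.55% of neurons, with overlapping intervals in each library. Entpd1, in 7.34%, 5.10% and 7.44% against 6.67%, 3.49% and 3.55%, also had overlapping intervals. P2ry6 and P2rx4 stood apart: P2ry6 was in 19.8%, 15.7% and 19.6% of monocytes against 7.22%, 1.61% and 9.64% of neurons, and P2rx4 in 8.53%, 7.64% and 8.93% against 2.22%, 1.61% and 2.54%. For both, the exact 95% binomial (Clopper-Pearson) intervals of monocytes and neurons did not overlap in any library. In CPM, P2rx7 was also above neurons, at 20.1 to 27.5 in monocytes against 3.94 to 10.9. Adora3 was at 15.6 to 18.7 CPM in monocytes against 3.94 to 17.3 in neurons, ranges that overlap. Whether doublets with microglia or free microglial RNA give the neuron values was not tested.

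**Figure D3:**
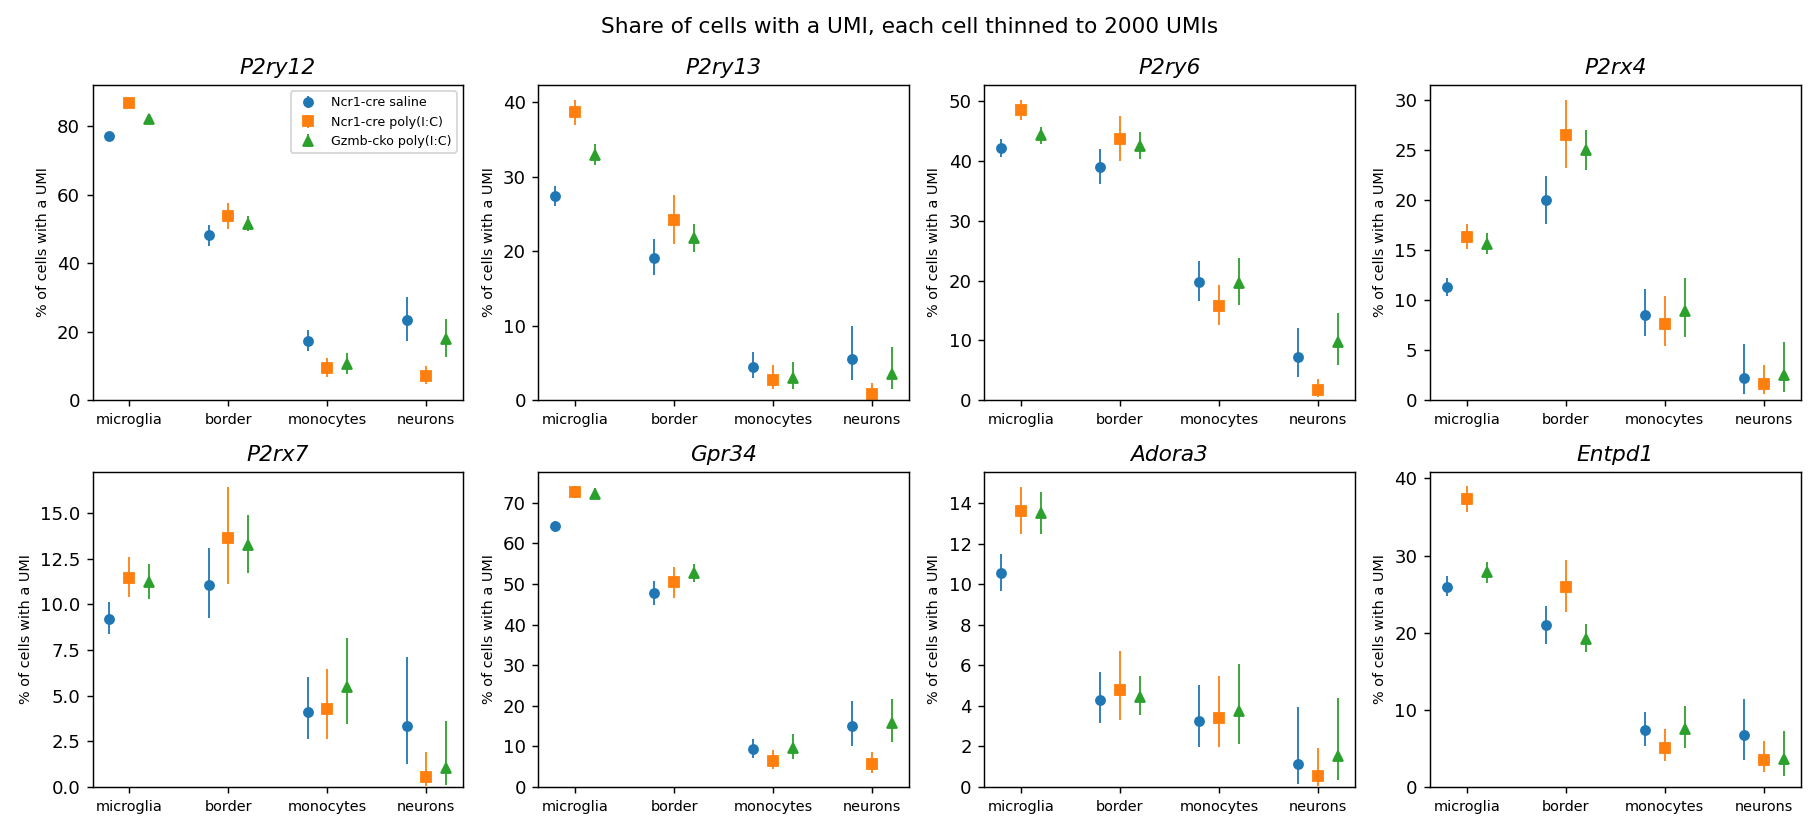
Percent of cells with at least 1 UMI of each gene after each cell was thinned to 2000 UMIs, by class and library, with exact 95% Clopper-Pearson intervals as bars; axes start at 0 and differ between panels. P2ry12 was found in 77.2% to 86.8% of microglia and in 6.97% to 23.3% of neurons, the class that should lack it.

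Per thinned cell the 8 genes were rarely all absent from microglia. None of the 8 had a UMI in 3.64%, 1.63% and 2.16% of microglia, 11.4%, 7.93% and 7.51% of border macrophages, 50%, 59.2% and 53.8% of monocytes, and 63.3%, 79.4% and 67.5% of neurons.

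Cycling microglia carried a smaller share of the 8 transcripts among their UMIs, yet P2ry12, P2ry13 and Entpd1 counts per cell were close to those of other microglia. P2rx7 counts per cell were 1.20 to 1.33 times those of other microglia. Cycling cells, with UMIs of Mki67 and Top2a, made up 938, 435 and 738 microglia (21.3%, 12.5% and 16.4%), and all 8 further cell cycle markers, Cdk1 and Ccnb1 among them, were higher in them. P2ry12 was at 715, 1028 and 873 CPM in cycling and 923, 1483 and 1204 CPM in other microglia, a log2 difference of −0.55 (SE 0.04, adjusted p = 4.9e-08, edgeR). All 8 genes were called lower, where 21.8% of the 12312 genes tested in this fit were called lower and 42.4% either way, with a median of −0.45 against −0.03 over all genes. Without TMM the split over all genes moved from 2531 higher and 2690 lower to 3473 and 1751. Entpd1 differed most, at 109, 148 and 119 against 149.7, 221 and 168 CPM and −0.61 (SE 0.04). P2ry13 gave −0.55, Adora3 −0.46, P2ry6 −0.44, Gpr34 −0.43 and P2rx4 −0.42, with SEs of 0.04 to 0.06. P2rx7 differed least, at −0.23 (SE 0.06, adjusted p = 0.0099, edgeR), and its call was lost in 7 of the other settings, with DESeq2 at an adjusted p of 0.14, without the Ncr1-cre library given poly(I:C) at 0.055 and without the Gzmb-cko library at 0.067.

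The lower share went with more UMIs per cell. A cycling microglia held 1.30, 1.45 and 1.46 times as many UMIs in all as another microglia (7167 against 5497, 8617 against 5928 and 9346 against 6387 on average). The gate itself favours cells with more UMIs, since both Mki67 and Top2a must be detected. Microglia with only 1 of these genes (622, 385 and 539 cells) stayed among the others. The part of the gate in the excess was not tested. P2ry12 counts per cell were 5.13 against 5.07, 8.86 against 8.79 and 8.16 against 7.69, ratios of 1.01, 1.01 and 1.06. Gpr34 per cell was 1.05, 1.09 and 1.22 times that of other microglia, and P2rx7 1.29, 1.20 and 1.33 times. Over the 8 genes and 3 libraries the ratio per cell ran from 0.954 (Entpd1, saline) to 1.33 (P2rx7, Gzmb-cko). The per-cell ratios were not tested. All 6 microglia markers outside the gate were lower in cycling cells too, with a median log2 difference of −0.28. Erythroid genes (6 of 6, median −1.09), choroid plexus genes (4 of 4 tested, median −0.92) and early-response genes such as Fos (12 of 13, median −0.49) were also lower there. Ttr was at 4484, 3037 and 1089 CPM in cycling and 8871, 4990 and 2044 CPM in other microglia. The part of these genes in the result was not tested.

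**Figure D4:**
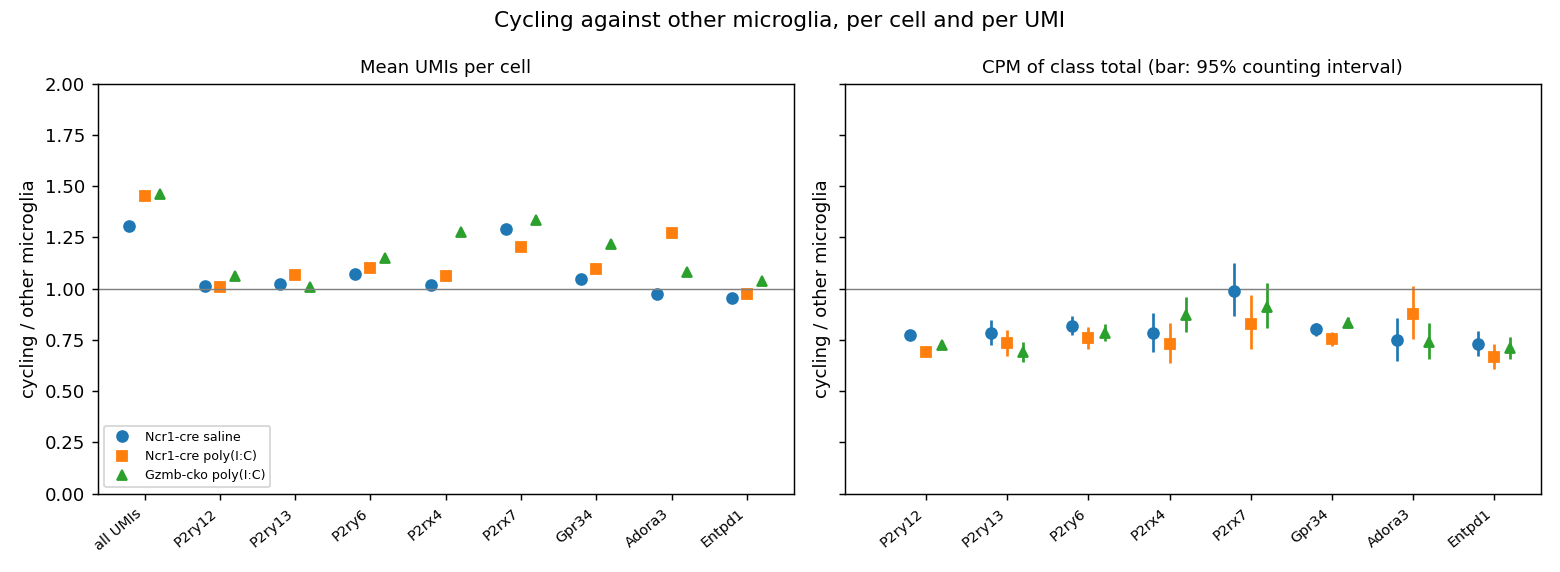
Ratio of cycling to other microglia by library, for mean UMIs per cell (left, with the total of all UMIs first) and for CPM of the class total (right, bars are exact 95% counting intervals). Total UMIs per cell were 1.30 to 1.46 times those of other microglia, P2ry12 per cell 1.01 to 1.06 times, and the CPM of P2ry12 was 0.693 to 0.775 times.

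Between libraries there was 1 sample a group, so differences have no replicate check and no test, and a treatment effect cannot be told apart from a library effect. In microglia of the Ncr1-cre groups the CPM of all 8 genes was above that with saline when poly(I:C) was given. Of the 8, 6 were more than 25% above, where 24.7% of 7796 genes with a mean of at least 10 CPM were so, 5.52% were more than 20% below (the same fold downward), and 30.2% passed this fold either way. P2ry12 was 1.62 times as high (95% counting interval 1.59 to 1.65), Entpd1 1.5 (1.44 to 1.57), P2ry13 1.47 (1.41 to 1.53) and P2rx4 1.45 (1.36 to 1.55). Gpr34 was 1.38 and Adora3 1.35 times as high, while P2rx7 at 1.23 and P2ry6 at 1.19 stayed under the mark. The microglia of the poly(I:C) library stood above in most genes on this scale. The median log2 ratio was 0.16 over all genes and 0.50 over the 8. Scaled by TMM, which centres the bulk of genes, the medians were 0.02 and 0.36, genes past the fold were 811 upward and 817 downward in place of 1924 and 430, and all 8 were still above 1, from 1.08 for P2ry6 to 1.47 for P2ry12. The 6 further microglia markers summed to 10852, 13674 and 13049 CPM. Erythroid genes, mostly hemoglobin, summed to 85203, 49352 and 23205 CPM in microglia, and 13 early-response genes to 3241, 5485 and 4643 CPM. The 5 choroid plexus genes, mostly Ttr, summed to 7787, 4698 and 1846 CPM, and the 6 monocyte markers to 130.6, 62.7 and 49.9 CPM. These 4 lists moved with the libraries, and their part in the ratios was not tested. With mitochondrial, ribosomal protein and hemoglobin genes left out of the total, the medians were 0.05 over all genes and 0.38 over the 8. Among cycling microglia alone all 8 were again above 1, from 1.06 for P2rx7 to 1.51 for Adora3.

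The Gzmb-cko library lay between the other two for all 8 genes. Against Ncr1-cre with poly(I:C), all 8 ratios were under 1 and 1 was past the fold, where 10.6% of genes were past it downward, 3.1% upward and 13.7% either way. That gene was Entpd1, at 0.753 times (0.723 to 0.784). P2ry12 was at 0.804 times (0.792 to 0.817) and P2ry13 at 0.874 (0.841 to 0.908), while Gpr34, Adora3, P2rx4 and P2ry6 were between 0.953 and 0.976. Direction depended on the scaling. With TMM 665 genes were past the fold upward and 410 downward, in place of 242 and 823. With TMM the median over the 8 was 0.00 and 4 of the 8 were above 1, up to 1.04 for Gpr34, with P2ry12 at 0.854 and Entpd1 at 0.80. In border macrophages Entpd1 was at 0.785 times (0.725 to 0.851). Against Ncr1-cre with saline, a comparison that differs in genotype and treatment together and shares libraries with both others, all 8 ratios were above 1, from 1.13 for Entpd1 to 1.38 for P2rx4. There 5 were past the fold, where 13.2% of genes were past it upward, 4.1% downward and 17.3% either way. This split turned with the total used: 1028 genes upward and 320 downward became 593 and 416 with TMM, and 306 and 563 with mitochondrial, ribosomal protein and hemoglobin genes left out, where 1 of the 8 was past the fold.

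**Figure D5:**
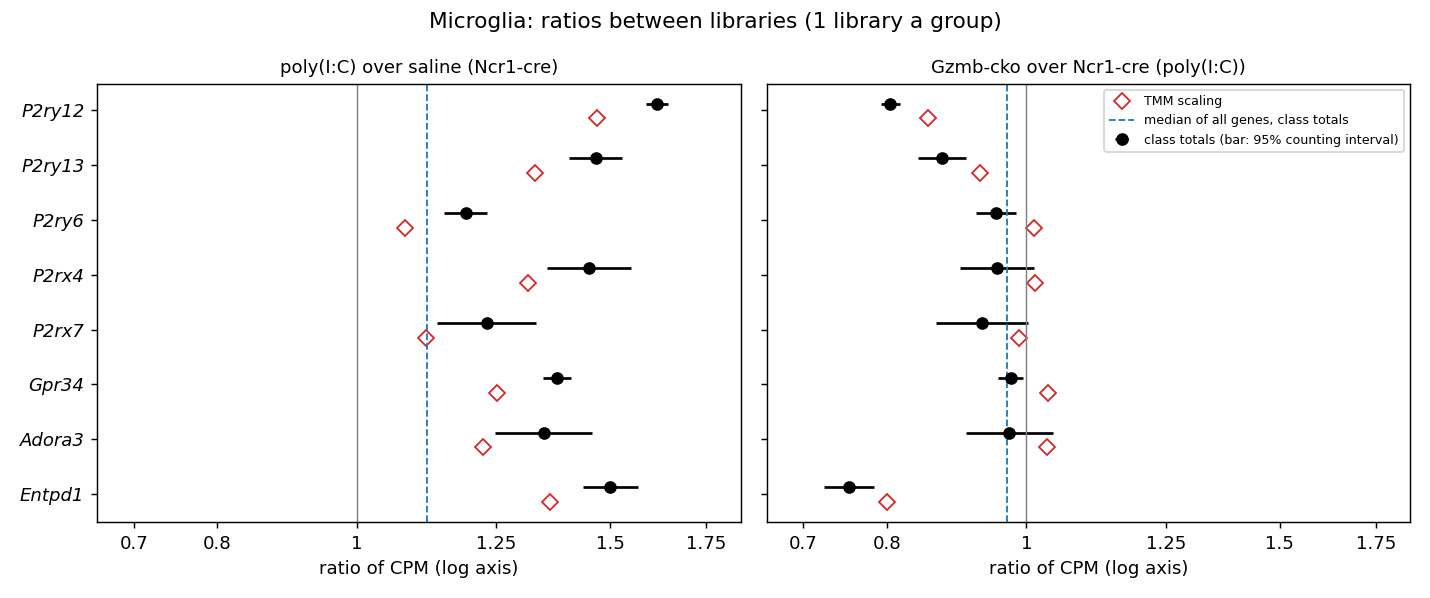
Ratios of CPM in microglia between libraries (log axis) for the 8 genes; circles use class totals with 95% counting intervals, diamonds use TMM scaling, and the dashed line is the median of all genes with class totals. With poly(I:C) against saline all 8 genes were above 1 under both scalings, P2ry12 at 1.62 and 1.47; for Gzmb-cko against Ncr1-cre, 4 of the 8 crossed to above 1 with TMM.

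Other genes of nucleotide and lipid signalling were taken from lists chosen by function. Their counts stand beside shares over all genes of 11.2% higher and 10.1% lower in border macrophages, 29.5% and 30.4% in monocytes, and 20.6% and 21.8% in cycling microglia. Of 12 further purinergic receptors, 5 had enough UMIs to be tested between classes; 1 was higher and 1 lower in border macrophages than in microglia, and 4 were higher and 1 lower in monocytes. Adora2b, a low-affinity adenosine receptor, was at 1.13, 0.731 and 0.388 CPM in microglia and 15.7, 25.9 and 14.2 in monocytes, a log2 difference of 4.92 (SE 0.34, adjusted p = 1.2e-06, edgeR). P2rx1, another ATP channel, was lower in monocytes (−0.88) and in border macrophages (−0.82), the opposite of P2rx4 in the latter. Between cycling and other microglia P2rx1 differed by 0.04 (SE 0.09, adjusted p = 0.76, edgeR), short of the threshold.

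Among 22 genes of nucleotide release, breakdown and transport, 17 were tested between classes, with 5 higher and 1 lower in border macrophages (11.2% and 10.1% over all genes). In monocytes 5 were higher and 5 lower, about the shares over all genes (29.5% and 30.4%). Cd38, which consumes NAD and yields ADP-ribose, was at 0.544, 0.411 and 0.906 CPM in microglia and 19.9, 37.5 and 37.1 in border macrophages (log2 difference 5.55, SE 0.22). Slc29a3, a lysosomal nucleoside transporter, was lower in border macrophages (−0.54), whereas Panx1, a channel that releases ATP, was higher in monocytes (1.35) and Enpp1 and Slc29a1 were lower there (−2.39 and −1.48). In cycling microglia 2 of 15 were higher, the adenosine kinase Adk (0.90) and the nucleoside transporter Slc29a1 (0.61), and 4 were lower.

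Of the lysophosphatidylserine genes beside Gpr34, 3 were tested. Abhd12, which breaks this lipid down, was at 440, 500.3 and 535 CPM in microglia and 132, 76.1 and 113 in monocytes (−1.95, SE 0.16). Abhd6 was lower in border macrophages (−0.48), in monocytes (−2.63) and in cycling microglia (−0.58).

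Of 21 genes of inhibitory G protein signalling and its channels, 4 were higher and 8 lower in border macrophages (11.2% and 10.1% over all genes), 9 and 9 in monocytes (29.5% and 30.4%), and 2 and 11 in cycling microglia (20.6% and 21.8%). Kcnk13, the potassium channel THIK-1 that acts downstream of P2ry12 in microglia, was at 45.1, 62.2 and 63.0 CPM in microglia and 9.15, 6.12 and 6.11 in monocytes (−2.68, SE 0.19). It was also lower in border macrophages (−0.75) and in cycling cells (−0.45), as P2ry12 was. Rgs18, a brake on G protein signals, went the other way and was higher in border macrophages (2.86) and in monocytes (4.95).

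The 9 genes around the inflammasome, which P2rx7 can trigger, split by class. In monocytes 5 were higher and 2 lower than in microglia (29.5% and 30.4% over all genes): Il1b, Casp4 and Casp1 were higher by 2.74, 2.16 and 1.5, and Il1a was lower by a log2 difference of −3.49 (SE 0.29). Il1a was also lower in border macrophages (−1.28), where Il18 was higher (0.52), with 2 of the 9 higher and 5 lower (11.2% and 10.1%). In cycling microglia 5 were lower (21.8% over all genes), Il18 (−0.61) and Il1a (−0.55) among them, and the other 4 did not pass.

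Likeness was described by Pearson's r of log2(CPM + 1) over 12 sums, which are cycling and other microglia, border macrophages and monocytes of each library and so share libraries and depth. Among 6614 genes of at least 20 CPM in a class, Gpr84, Asb2, Lap3, Rilpl1 and Lpcat3 were most like P2ry12 (r from 0.994 to 0.996). By rank correlation 0 of the 5 for P2ry12 were the same, so the order among such close values is not firm. Among the 8 themselves, P2ry12 and P2ry13 had r = 0.992 and P2ry12 and Gpr34 r = 0.987, while P2rx4 had r = 0.526 with P2ry12 and 0.158 with Adora3. The genes most like P2rx4 were Laptm4a, Il10rb, Slc17a5, Pepd and Engase (r from 0.965 to 0.978).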

How the data were processed

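The authors deposited 1 sparse matrix a library, with whole-number UMI counts that were not normalized. Per the file headers they came from Cell Ranger 5.0.0, whereas version 3.0.1, the aligner STAR and mm10 stand in the submitters' processing notes; no source used here gives the rule for calling cells or the use of strand in counting. P2ry12 and Med12l have overlapping exons on opposite strands, so reads of the pair cannot be told apart if strand was ignored (Med12l stood at 27.3 to 38.5 CPM in microglia).

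Cells in the monocyte gate and another gate were left out of both (32 to 100 microglia and 5 to 32 border macrophages a library). Scrublet in scanpy 1.11.5 called 2.61% to 4.66% of cells doublets; they were kept, and leaving them out was an alternative. Counts were summed per class and library and tested with edgeR 4.0.16 (R 4.3.3; TMM, filterByExpr, glmQLFit and glmQLFTest, library as a block): 9 sums for the 3 classes and 6 for cycling against other microglia, with Benjamini-Hochberg adjustment over all genes tested. Libraries were compared as ratios of CPM without a test. DESeq2 1.42.0 and the settings given in the closing section were alternatives. The tests were checked on simulated counts.

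The genes, lists and gates were chosen with earlier results of these data known. Named beside the 8 genes are, per list and comparison, at most the 4 with the largest fitted fold among those of at least 10 CPM in a class, and the 5 genes most like P2ry12 and P2rx4; those most like Gpr34 are not reported here. The library block is the pairing: class sums of 1 library come from the same cells' suspension. Promoters were matched by symbol, with no entry for P2ry6 and Gpr34. Intervals cover counting error only.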

Additional observations from a re-analysis of the deposited data

Results flagged for a closer look

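In monocytes several of the genes moved between libraries against their direction in microglia, each group being 1 library, and the difference between the classes was not tested. With poly(I:C) against saline, where microglia were above 1, the ratio of CPM in monocytes was 0.523 for P2ry12, 0.549 for P2ry13, 0.698 for P2ry6, 0.522 for Gpr34 and 0.669 for Entpd1. For Gzmb-cko against Ncr1-cre with poly(I:C), where microglia were below 1, it was 1.53 for P2ry12, 1.37 for P2ry6, 1.99 for Gpr34 and 1.35 for Entpd1, and Gpr34 was at 1.09 in border macrophages. For Gzmb-cko with poly(I:C) against Ncr1-cre with saline, P2ry12 was at 0.80 and P2ry13 at 0.716 in monocytes. Neurons, which should lack these transcripts, gave 0.316 for P2ry12 and 0.340 for Gpr34 with poly(I:C) against saline, and 2.60 and 3.56 for Gzmb-cko against Ncr1-cre, and the 6 microglia markers summed to 2587, 1237 and 2075 CPM in monocytes of the saline, Ncr1-cre poly(I:C) and Gzmb-cko libraries. Their part in the monocyte ratios was not tested.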

How the results depend on the processing

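Monocytes were lower than microglia in all 8 genes under all 14 alternatives. Between border macrophages and microglia, 2 genes were higher in the fit as designed but 1 with DESeq2, with no low-count filter, with no replicate block, with a microglia gate of 3 genes and with cells in 2 gates kept in both classes; 1 to 2 were higher and 1 to 5 lower, against 5, when 1 library was left out, and 3 were lower with no replicate block. Between cycling and other microglia 5 in place of 8 were lower with no replicate block. Adora3 between monocytes and border macrophages turned from −0.03 to 0.13 without the Gzmb-cko library (−0.15 to 0.13 with 1 library left out), 0.082 with cells in 2 gates kept and 1.5 with border macrophages of at most 1 microglia gate gene, which also made 1 gene higher where none was; the cause was not tested. For Gzmb-cko against Ncr1-cre in microglia, P2ry6 turned to 1.01 and Gpr34 to 1.04 with TMM, 3 of 8 were above 1 in cycling microglia alone, Gpr34 at 1.08 and P2rx4 at 1.12 among them, and 0 in place of 1 gene was more than 20% below there. For Gzmb-cko against saline, 5 genes more than 25% above became 1 with mitochondrial, ribosomal protein and hemoglobin genes left out of the total and 3 in cycling microglia alone. Thinned to 1000 UMIs, P2ry12 was found in 56.4%, 70.7% and 63.2% of microglia, as fewer UMIs per cell must give. By rank correlation 0 of the 5 genes most like P2ry12 were shared.

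Over all genes, counts called moved as well. For border macrophages against microglia 1381 higher and 1241 lower became 716 and 416 with no replicate block and 491 and 225 without the Gzmb-cko library. Lower calls were 793 with DESeq2 and 756 without that of Ncr1-cre with poly(I:C), and higher calls 2210 with the stricter border cells. For monocytes against border macrophages 3457 and 3396 became 2245 and 5554 without TMM, and 2226 were lower without the Gzmb-cko library. For cycling against other microglia 2531 and 2690 became 1660 and 1265 with DESeq2 and 1388 and 715 with no replicate block, and lower calls were 1751 without TMM and 1510 in thinned cells. Depth limits P2rx4, P2rx7 and Adora3 most, with a median of 0 UMIs per microglia.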
